A study of Homo sapiens with 2 samples.

Results

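Probes whose names begin with A_19_P belong to the part of the Agilent catalogue that was designed for long intergenic non-coding RNAs (lincRNAs). On the lncRNA array used here they were taken as every non-control spot with such a name, which gave 1504 probes on 3904 spots, of 77162 probes on 175556 spots in all. Each probe was a 60-base oligo, and 1200 of them were printed on 3 spots and 304 on 1 spot. They were set against the 11868 probes (17790 spots) whose names begin with A_23_P, an older class of the catalogue made mostly for protein-coding transcripts. The files hold a probe name and a sequence but no target, so the class names could not be checked against an annotation for most probes. Other sources name 32 loci for 56 of the lincRNA probes, and of the 8 loci that RefSeq holds under the same symbol 7 are lncRNAs and 1, TUG1, is listed as protein-coding.

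The arrays compared LNCaP cells before and after androgen. LNCaP, a long-established line from a human prostate tumour, carries a functioning androgen receptor, and DHT (dihydrotestosterone) is the natural androgen with high affinity for it. The cells were starved of hormone for 72 h in medium with charcoal-stripped serum, and RNA was taken without exposure (0 h) and after 2 h in 10 nM DHT. Each condition had 1 array, so no difference could be tested or checked in a replicate, and how many arrays there were sets the precision throughout. Errors given below are SDs over replicate spots of one oligo on 1 array and measure spot noise alone.

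LincRNAs are transcribed by RNA polymerase II from loci between protein-coding genes, and are often capped, spliced and polyadenylated, but are not known to be translated into functional proteins. Most are present at lower levels than mRNAs and in fewer cell types. Some, such as NEAT1, hold nuclear bodies together, while others host microRNAs or small nucleolar RNAs in their introns or exons. Androgen-bound receptor acts as a transcription factor at both protein-coding and non-coding loci.

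The probe sequences below are those on which the values turn, written 5′ to 3′ as the array files give them. In the first set the capitals mark runs of 3 or more C, a feature that went with signal in this class. The set holds the pair with the largest rises, the named probe with the largest fall, and a pair that overlaps by 30 bases with an equal GC share but C runs of unequal length.
A_19_P00331618 (LOC100507645, chromosome 11): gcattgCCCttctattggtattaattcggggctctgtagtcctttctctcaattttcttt
A_19_P00319476 (LOC100507645, chromosome 11): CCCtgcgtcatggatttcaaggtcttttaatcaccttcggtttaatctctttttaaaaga
A_19_P00315593 (CTB-43E15.2, chromosome 5): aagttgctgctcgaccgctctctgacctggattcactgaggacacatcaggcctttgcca
A_19_P00316034 (SNHG11, chromosome 20): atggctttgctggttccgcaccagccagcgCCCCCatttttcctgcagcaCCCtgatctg
A_19_P00321810 (overlapping SNHG11 probe): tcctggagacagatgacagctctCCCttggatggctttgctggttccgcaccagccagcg

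The next set shows that the class also reaches microRNA loci. Capitals mark the bases shared with a microRNA hairpin of RefSeq (assembly GRCh38.p14) in the sense direction.
A_19_P00811954 (MIRLET7B): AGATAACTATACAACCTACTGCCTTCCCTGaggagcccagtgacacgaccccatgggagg
A_19_P00804859 (MIR221): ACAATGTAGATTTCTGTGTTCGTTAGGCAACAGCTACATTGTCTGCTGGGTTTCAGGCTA
A_19_P00316013 (MIR4519): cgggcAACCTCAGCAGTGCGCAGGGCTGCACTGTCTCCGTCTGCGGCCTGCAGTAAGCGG

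The last sequence is that of the probe that shares bases with a PCR primer for LINC00969 (listed by RefSeq as MIR570HG, chromosome 3). Here the capitals mark the shared bases.
A_19_P00317653 (LINC00969): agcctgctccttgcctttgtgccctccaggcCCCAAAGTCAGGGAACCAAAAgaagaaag

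How many lincRNA probes gave a signal was asked first. A spot counted as detected when the scanning software called it both positive and significant and well above background, and a probe when the detected share of its unflagged spots was 0.5 or more. At 0 h 482 of 1504 lincRNA probes (32.0%) were detected, and at 2 h 782 (52.0%). The A_23_P probes stood at 41.2% and 62.4%, and all non-control probes at 25.2% and 41.9%. Taken whole, the lincRNA class therefore lay below the A_23_P class and above the whole array on both arrays. The order against A_23_P depends on how many spots a probe had, as most A_23_P probes (10687) were printed on 1 spot. Among probes on 3 spots, 31.9% of the 1200 lincRNA probes and 23.4% of the 291 A_23_P probes were detected at 0 h, and 50.8% and 45.02% at 2 h, which turns the order. Among probes on 1 spot the lincRNA class lay below, at 32.6% against 41.9% at 0 h and 56.9% against 62.8% at 2 h. Of the negative control spots, 2 of 600 were detected at 0 h and 0 of 600 at 2 h.

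The detected sets were nested almost completely. The shared set held 481 lincRNA probes, while 301 were seen at 2 h alone, 1 at 0 h alone and 721 on neither array. The share seen at 2 h alone was 20.01%, beside 21.5% of A_23_P probes and 16.8% of all probes. The gain at 2 h was thus seen on the whole array.

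Levels are given as log2 of the background-corrected signal after quantile normalization of both arrays. Over all lincRNA probes the median level was 4.73 at 0 h and 5.21 at 2 h, beside 5.89 and 6.22 for A_23_P probes. Among probes on 3 spots the lincRNA medians were the higher ones, at 4.66 and 5.10 against 4.44 and 4.76. Among probes detected on both arrays the medians lay closer, at 8.31 and 8.16 for lincRNA probes and 8.60 and 8.66 for A_23_P probes. The brightest lincRNA probe reached 17.7 at 0 h and 17.0 at 2 h, beside 18.9 and 18.8 for the brightest probe of the array. Only 28 probes had a mean level of 12 or more, and 757 lay under 5. The median SD over 3 spots of a detected lincRNA probe was 0.18 at 0 h and 0.12 at 2 h. This gives a spread of 0.21 for a difference between single spots of the arrays, wider than that between means of 3 spots.

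Detection and level went with base composition. GC share of lincRNA probes had a median of 45% (quartiles 38.3% and 51.7%), and that of A_23_P probes a median of 43.3% (38.3% and 45%). Of lincRNA probes with 35 to 40% GC, 13.7% were detected at 0 h and 38.7% at 2 h. Of those with 60% GC or more, 65.8% and 86.1% were. The median level at 0 h went from 3.85 to 8.09 between the same bins. In the A_23_P class the share detected at 0 h went from 22.9% to 71.4%, a similar path from a higher start. Across the 1504 lincRNA probes Spearman's rank correlation between GC share and mean level was 0.35, and the points share both arrays.

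C and G, the bases behind the GC share, did not behave alike. The rank correlation with the mean level was 0.41 for the percentage of C and 0.03 for the percentage of G in the lincRNA class, and 0.26 and 0.08 in the A_23_P class. The longest run of each base was then compared, a feature chosen after its values had been seen. With a longest C run of 1, 10 of 131 lincRNA probes (7.63%) were detected at 0 h. The share was 18.6% for a run of 2, 38.2% for 3, 65.7% for 4 and 98.1% (52 of 53) for 5 or more. At 2 h the corresponding shares were 28.2%, 40.1%, 59.7%, 80.2% and 100%. The median level at 0 h was 3.69 with a run of 1 and 9.97 with a run of 5 or more.

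Runs of G showed no such order. With a longest G run of 1, 2, 3, 4 and 5 or more, 33.3%, 33.7%, 28.4%, 31.6% and 37.8% of lincRNA probes were detected at 0 h. Longer runs of A went the other way, from 36 of 60 probes for a run of 1 to 23.2% for 5 or more. In the A_23_P class the C-run shares at 0 h were 25.7%, 34.8%, 46.3%, 64.4% and 90.9%, and the G-run shares went from 35.7% to 52.8%. The C-run order was thus shared by both classes.

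The C-run pattern was also present at matched GC. Among lincRNA probes under 45% GC, 57.1% of 56 probes holding CCCC were detected at 0 h and 15.9% of 671 without it. At 45 to 50% GC the shares were 67.9% and 27.6%, at 50 to 55% 85.7% and 36.1%, and at 55% or more 83.3% and 44.7%. The motif CCCC, read on the probe strand, occurred in 225 lincRNA probes (14.96%), 10.9% of A_23_P probes and 8488 of the 77162 probes in all (11%). Its reverse complement GGGG occurred in 11.8%, 13.4% and 11%. Of the 28 lincRNA probes with a mean level of 12 or more, 19 (67.9%) held CCCC and 1 held GGGG. The part that probe composition plays in these levels was not tested.

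The 5 lincRNA probes with the highest mean level illustrate this, although the files give none of them a locus. A_19_P00800638 read 17.66 ± 0.09 (SD, n = 3 spots) at 0 h and 16.96 ± 0.04 at 2 h, with 36.7% GC and a run of 5 C. A_19_P00321628 read 17.27 ± 0.12 and 16.86 ± 0.04 (n = 3 spots), with 70.0% GC and a run of 5 C. A_19_P00318568 read 16.33 ± 0.09 and 15.89 ± 0.01 (n = 3 spots), with 65% GC and a run of 4 C. These 3 were lower at 2 h by 0.71, 0.41 and 0.44 on the log2 scale, with no overlap between the spots of both arrays. Their size rests on the scaling, at -2.21, -1.91 and -2.04 with the 75th percentile of all spots and -0.15, 0.14 and 0.01 with the spike-in shift, so that A_19_P00800638 stayed lower and the other two did not. On 1 spot each, A_19_P00805047 read 16.47 and 15.02 and A_19_P00802413 read 15.63 and 15.80. The first of these had 35% GC and a longest C run of 3, the second 70.0% GC and a run of 4.

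The change after DHT was asked next. Among the 481 lincRNA probes detected on both arrays the median difference, 2 h minus 0 h, was -0.45 on the log2 scale (quartiles -0.96 and 0.31), and 330 of them (68.6%) were negative. The 4860 A_23_P probes had a median of -0.09 (quartiles -0.65 and 0.60) with 53.8% negative, and all 19321 probes detected on both arrays a median of -0.29. The lincRNA median lay 0.36 below the A_23_P median. At equal spot number the gap, lincRNA minus A_23_P, was smaller, at -0.11 among probes on 1 spot (99 lincRNA and 4446 A_23_P probes) and -0.020 among those on 3 spots (382 and 68), where the medians were -0.49 and -0.47. The A_23_P probes on 7 spots, a number no lincRNA probe had, stood at 0.27. Detection on both arrays leaves out the 301 lincRNA probes seen at 2 h alone and 1 seen at 0 h alone, and so lowers the median. Over the 783 probes detected on either array, with undetected signals at their measured value, the lincRNA median was -0.05, beside 0.25 for A_23_P probes and 0.16 for all probes. The gap in that set was -0.30 over all spot numbers, -0.27 on 3 spots and 0.09 on 1 spot, so its size and sign at equal spot number depend on the detection rule. Among probes detected on both arrays, the medians of lincRNA, A_23_P and all probes were 0.81, 1.12 and 0.93 without scaling, and 1.22, 1.53 and 1.34 after a shift to spike-in probes, in place of -0.45, -0.09 and -0.29, so the sign of the class median depends on the scaling. Over all spot numbers the gap between the classes in this set was -0.31 without scaling, -0.26 after normexp correction and -0.35 in the log2 values of the authors. A shift of whole arrays moves all probes alike, so it leaves the -0.31 as it is by construction and is no further check.

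Counts past 2-fold were compared next. Either array detected 783 lincRNA probes, and of these 186 (23.8%) had a signal 2-fold or more above that at 0 h and 130 (16.6%) a signal 2-fold or more below it. All 32440 probes so detected gave 27.9% and 13.2%, and A_23_P probes 27.5% and 9.34%. Among probes detected on both arrays 44 lincRNA probes (9.15%) were higher and 116 (24.1%) lower, beside 12% and 19.2% of all probes and 13.8% and 12.3% of A_23_P probes. Split by spot number, 38 of 382 lincRNA probes on 3 spots (9.95%) were higher and 93 (24.3%) lower, close to the 7 (10.3%) and 14 (20.6%) of 68 A_23_P probes on 3 spots and to the 10.6% and 25.8% of all probes on 3 spots. On 1 spot, 6 of 99 lincRNA probes (6.06%) were higher and 23 (23.2%) lower, beside 13.3% and 12.7% of A_23_P probes and 12.7% and 14.5% of all probes on 1 spot. Of the 186 higher probes 142 were detected at 2 h only, and with the undetected side at its signal or the lowest detected signal, whichever was higher, 56 of those remained 2-fold higher as a lower bound. By that bound 100 lincRNA probes (12.8%) were higher and 117 (14.9%) lower, beside 15% and 11.9% of all probes and 16.9% and 8.47% of A_23_P probes. Some probes undetected at 0 h read above the lowest detected level of 5.65, such as A_19_P00317660 at 6.54. The bound is therefore not strict, and counts by it may be too high.

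These splits move with the scaling. The 186 higher and 130 lower probes became 239 and 94 with both arrays shifted to the 75th percentile of spots detected on both, and 132 and 223 with that of all spots. Without scaling they were 477 and 4, and with the spike-in shift 570 and 1. The median of all probes detected on both arrays lay 1.22 higher without scaling and 1.63 higher with the spike-in shift, so each direction given for a single probe holds for quantile normalization and a fall may be lost under these. Most of the 2-fold set stood outside the spread of the spots. Of 346 lincRNA probes with 3 unflagged spots on each array and detected on both, 35 were 2-fold higher, all 35 with no overlap between the spots of both arrays, and 79 were 2-fold lower, 73 of them with no overlap. In the same set 262 (75.7%) had spots that did not overlap, at any size of difference.

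By signal level, the difference after quantile normalization was lowest among dim probes, within the set detected on both arrays. In bins of the mean level of both arrays the lincRNA median was -0.96 from 6 to 7 (75 probes), -0.24 from 7 to 8 (144), -0.30 from 8 to 10 (171), -0.37 from 10 to 12 (60) and -0.47 at 12 or more (28). The A_23_P medians in these bins were -0.89, -0.02, 0.00, -0.03 and 0.04. In the lowest of them the classes lay 0.072 apart, and from 7 upwards the lincRNA class lay 0.23 to 0.50 below. In the 6 to 7 bin a further 86 lincRNA probes were detected at 2 h only and are not in the median. The lowest detected level was 5.65 at 0 h and 4.64 at 2 h. Detection on both arrays thus tends to leave out dim probes with a low 0 h signal, which lowers the median of this bin. Binned by the 0 h level in place of the mean, the dim probes no longer stood lower, and the 8 to 10 bin lay 0.15 below the 6 to 7 bin. The 8 to 10 bin lay 0.67 above the 6 to 7 bin by the mean level, and 0.077 above it without scaling. Shifts of whole arrays leave the 0.077 as it is by construction. The order by level was thus mostly lost outside quantile normalization.

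By GC share, the difference fell from 35% GC to the most GC-rich probes. The lincRNA median was 0.46 at 35 to 40% GC (49 probes), -0.17 at 40 to 45% (87), -0.36 at 45 to 50% (124), -0.57 at 50 to 55% (65), -0.60 at 55 to 60% (102) and -0.64 at 60% or more (52). The A_23_P medians were 0.49, 0.32, 0.14, -0.51, -0.60 and -0.70. From 35% GC upwards both classes thus began and ended at like values, and lay apart between 40 and 50% GC. Under 35% GC few probes were detected on both arrays and the values did not continue this order. Under 30% GC 1 lincRNA probe stood at 0.87 and 8 A_23_P probes had a median of -0.52, and at 30 to 35% 1 lincRNA probe stood at -0.58 and 14 A_23_P probes had a median of -0.55. Over all non-control probes the medians of these bins were -0.32 (29 probes) and -0.30 (58), below the 0.13 at 35 to 40%. Spearman's rank correlation between GC share and difference was -0.27 over 481 lincRNA probes and -0.44 over 4860 A_23_P probes, and the points of each share the same pair of arrays. The contrast of probes with at least 55% GC against those with 35 to 45% was -0.61 in the lincRNA class, and -0.80 without scaling. Shifts of whole arrays leave the -0.80 as it is by construction.

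Counts by GC told the same. Under 50% GC 35 of 262 lincRNA probes detected on both arrays (13.4%) were 2-fold higher and 55 (21.0%) 2-fold lower. At 50% GC or more 9 of 219 (4.11%) were higher and 61 (27.9%) lower. The A_23_P class gave 20.05% higher and 7.66% lower under 50% GC, and 1.42% and 21.7% at 50% or more. All non-control probes gave 16.4% higher and 16.9% lower under 50% GC, and 3.31% and 23.9% at 50% or more, so at high GC the lincRNA shares lay near those of the whole array. Of the 52 lincRNA probes with at least 60% GC that were detected on both arrays, 0 were 2-fold higher and 17 (32.7%) were lower, near the 2.19% and 28.9% of all 1003 non-control probes of such GC. Of a further 16 detected at 2 h only, 3 had a signal 2-fold higher, 1 of them also as a lower bound.

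Longer runs of C and of G both went with lower differences. The lincRNA median was 0.37 with a longest C run of 1 (10 probes), -0.01 with 2, -0.36 with 3, -0.63 with 4 and -0.75 with 5 or more (52 probes). The A_23_P medians went from 0.40 to -0.69. Under 45% GC the lincRNA median was -0.53 with CCCC and 0.28 without, and at 45 to 50% -0.78 and -0.17. At 50 to 55% it was -0.69 and -0.30, and at 55% or more the medians were close, at -0.64 and -0.59. In these GC bins 12.5%, 39.5%, 23.3% and 30.8% of probes with CCCC were 2-fold lower. Without it the shares were 18.9%, 18.6%, 20% and 30.3%, so under 45% GC the order was reversed. With a longest G run of 1, 2, 3, 4 and 5 or more the lincRNA medians were 0.15, -0.44, -0.44, -0.72 and -0.79, so the order of the differences, unlike that of detection, was not particular to C. Among the 116 lincRNA probes 2-fold lower, 46 (39.7%) held CCCC, and among the 44 higher 6 (13.6%) did. Over all 481 lincRNA probes detected on both arrays 165 (34.3%) held it, so the share among the lower probes lay near that of the whole set and the share among the higher ones below it. The motif GGGG was held by 22 (18.97%) of the lower and 3 (6.82%) of the higher probes. Of all 481 probes, 42 had a longest G run of 4 and 17 a run of 5 or more.

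Among probes detected on both arrays, part of the gap between the classes went with GC and level, and most of it with spot number. With A_23_P probes weighted to the signal bins of the lincRNA probes, the lincRNA class lay 0.25 below, with GC bins 0.22 below, and with both together 0.15 below, against 0.36 unweighted. With A_23_P probes weighted to the spot numbers of the lincRNA probes the gap was -0.038, where 68 A_23_P probes on 3 spots carry most of the weight. At 50% GC or more the medians of both classes were -0.62 and -0.57, and under 50% GC -0.24 and 0.26. Among the 16 bins of GC and level together, the largest gaps were at mean levels of 10 or more under 50% GC. There the lincRNA medians were -0.30 under 45% GC (27 probes) and -0.33 from 45 to 50% (24 probes), and the A_23_P medians 0.54 and 0.31. With 1 array per condition these gaps had no test.

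Among named loci, the largest rises were those of the probe pair that the study names LOC100507645, on chromosome 11. RefSeq does not hold this symbol. Whether the pair meets a transcript of another chromosome 11 locus, such as MALAT1, or on which strand, was not tested. A_19_P00331618 read 8.59 ± 0.11 at 0 h and 14.11 ± 0.04 at 2 h (SD, n = 3 spots), a 45.9-fold difference. A_19_P00319476 read 8.33 ± 0.12 and 13.43 ± 0.11 (n = 3 spots), 34.3-fold higher. All spots at 2 h lay above all spots at 0 h on both probes, and their GC shares were 40% and 36.7%. NEAT1, the scaffold RNA of paraspeckles, gave 7.11 ± 0.23 and 11.45 ± 0.08 on A_19_P00318409 (n = 3 spots), 20.2-fold higher. Its other probes, A_19_P00321333 and A_19_P00321332, were detected at 2 h only, at 10.43 ± 0.11 and 9.40 ± 0.08, with lower bounds of 4.03 and 3.75 on the log2 scale. After normexp correction their differences were 3.11 and 2.78, so the bounds do not hold under that setting.

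Of the 5 largest rises among probes detected on both arrays, 2 had no name in the sources used here. A_19_P00321977 went from 7.59 ± 0.12 to 11.94 ± 0.09 (n = 3 spots), 20.4-fold higher. A_19_P00320047 went from 8.20 ± 0.17 to 11.83 ± 0.15 (n = 3 spots), 12.4-fold higher, and alone among the 5 had over 50% GC, at 51.7%. Its bases were 40% G and 11.7% C. In falling order the 5 rises were 5.52, 5.10, 4.35, 4.34 and 3.63 on the log2 scale. With the 75th percentile of all spots they became 4.74, 4.38, 3.90, 3.99 and 3.09. With the spike-in shift they were 6.80, 6.44, 5.95, 6.05 and 5.15, so their size rests on the scaling.

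The largest falls were smaller than the rises. A_19_P00315593, named CTB-43E15.2, read 8.69 ± 0.05 at 0 h and 6.08 ± 0.58 at 2 h (n = 3 spots), 6.07-fold lower, with no overlap between the spots. Next came 4 probes without a name. A_19_P00320343 went from 8.69 ± 0.56 to 6.47 ± 0.56 and A_19_P00327081 from 7.32 ± 0.04 to 5.12 ± 0.24 (n = 3 spots each), 4.64-fold and 4.58-fold lower. A_19_P00809548 went from 7.37 ± 0.96 to 5.27 ± 0.44 (n = 3 spots), 4.27-fold lower, with 2 of 3 spots detected on each array. A_19_P00807507 went from 9.95 ± 0.04 (n = 3 spots) to 7.89 ± 0.13 (n = 2 spots), 4.18-fold lower. Spots of both arrays did not overlap on any of these 4 probes. With the spike-in shift the differences of the 5 probes were -0.84, -0.44, -0.26, -0.19 and -0.47, all under 2-fold, and without scaling CTB-43E15.2 alone (-1.25) stayed past 2-fold.

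Probes detected at 2 h only gave bounds of rises. Besides the NEAT1 pair, the largest bounds were 3.11 on A_19_P00315603 (without a name), 2.56 on A_19_P00318715 of FLJ43663 on chromosome 7 and 2.49 on A_19_P00319990 (without a name). Their levels at 2 h were 9.11 ± 0.14, 8.21 ± 0.15 and 8.15 ± 0.11 (n = 3 spots each), and no spot of any was detected at 0 h. After normexp correction their differences were 2.20, 1.41 and 1.74, all below these bounds. With the median of spots they were 2.88, 2.12 and 3.24, so that the bounds do not hold under every setting. Of the 6 FLJ43663 probes 4 were detected at 2 h only and 2 on neither array, and 3 of the 4 were 2-fold higher as a bound. The lone probe detected at 0 h only, A_19_P00319959, read 6.60 ± 0.69 at 0 h with 2 of 3 spots detected and 3.74 ± 0.37 at 2 h with none, a bound of -1.96. Its difference was -1.06 after normexp correction and -1.25 with the spike-in shift.

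Of a list of 24 lncRNAs studied in prostate cancer or chosen by the study, 6 had a lincRNA probe that could be named. These include LINC00969, whose probe was matched by a PCR primer and not named in a list. The lists hold changed probes only, and 1448 lincRNA probes had no name in them. The rest of the 24 may therefore have probes in the class that were not found. TUG1, which binds chromatin regulators, had 10 probes on chromosome 22. On 7 of these, detected on both arrays, the difference lay between 2.09 and 2.36, and 3 were detected at 2 h only with bounds from 0.01 to 1.32. After normexp correction the differences of those 3 lay between 0.20 and 1.02. MALAT1, an abundant nuclear RNA of speckles, had a pair of dim lincRNA probes under its name, both detected at 2 h only. These read 5.38 ± 0.05 on A_19_P00805006 and 5.45 ± 0.17 on A_19_P00809614 at 2 h (n = 3 spots each), with bounds of 0.00. These do not stand for the gene, since all 5 probes of other classes that the study names for MALAT1 were detected on both arrays, at 7.88 to 9.70 at 0 h and 12.47 to 14.99 at 2 h, with differences of 3.65 to 5.61. The PVT1 probe, for a host of microRNAs, read 7.42 ± 0.21 and 8.64 ± 0.13 (n = 3 spots), 2.33-fold higher. The LINC00969 probe shown above read 10.78 ± 0.07 and 10.14 ± 0.21 (n = 3 spots), lower by 0.64 on the log2 scale and under 2-fold. Its direction turned without scaling (0.31) and with the spike-in shift (0.71), and it was past 2-fold (-1.34) with the 75th percentile of all spots.

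All 56 names came from lists of changed probes that the study drew from these arrays (53 from a long list, 3 from a short list in its text), so their directions, that of the LOC100507645 pair included, are not independent evidence. The remaining probe of the short list, A_19_P00316241 of RP11-434D9.1 on chromosome 5, was detected on neither array, at 3.35 ± 0.04 (n = 2 spots, 1 left out for its flag) and 3.41 ± 0.01 (n = 3 spots). The flagged spot was the lone detected one, and with it kept the 0 h level was 5.20 ± 3.21 (n = 3 spots), a difference of -1.79. Among these 56 probes, 31 passed detection on each array, 20 passed it at 2 h alone and 5 on neither, and of the 31 probes 14 were 2-fold higher and 15 lower. Of 160 lincRNA probes detected on both arrays and changed 2-fold, 131 had no name. MIAT, a nuclear lncRNA on chromosome 22, had 3 named probes, of which A_19_P00315524 was detected on both arrays and read 7.31 ± 0.22 and 5.72 ± 0.26 (n = 3 spots), 3.01-fold lower. CRNDE, a lncRNA on chromosome 16 first described in colorectal tumours, went from 6.91 ± 0.03 to 8.11 ± 0.11 on A_19_P00322533 (n = 3 spots), 2.28-fold higher. LOC100506190, which RefSeq lists as LINC00963, went from 6.97 ± 0.33 to 5.21 ± 0.37 on A_19_P00322101 and from 8.30 ± 0.35 to 7.31 ± 0.24 on A_19_P00322121 (n = 3 spots each), 3.39-fold and 1.98-fold lower. These had 78.3% and 55% GC and runs of 4 and 5 C.

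Values were also compared between overlapping probes, which may differ in the transcripts they meet as well as in their window. Of the lincRNA probes 427 shared at least 30 bases on the same strand with another probe of the array. Within the class there were 179 such pairs, of which 117 were detected at 2 h on both members and 54 on both arrays. The levels of the 117 pairs at 2 h differed by a median of 0.39, and 27 of them lay at least 1 log2 unit apart, up to 3.71. In the 54 pairs detected on both arrays the levels at 2 h differed by a median of 0.34 and at most 2.40, and the differences between 0 h and 2 h by a median of 0.16 and at most 1.01. Levels span a wider range than differences over the class, so these gaps are not on equal footing.

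The SNHG11 pair is one of these. SNHG11 is a host gene of small nucleolar RNAs. A_19_P00316034, with a run of 5 C, read 10.03 at 0 h and 8.88 at 2 h, and A_19_P00321810, with a longest run of 3, read 7.11 and 6.48. Both have 60% GC and share 30 bases, and differed by 2.92 and 2.40 in level and by 0.52 in their difference (-1.15 and -0.63). Only 8 of the 117 pairs had C runs of unequal length, and the longer run was on the brighter probe in 6. Where GC differed, in 80 pairs, the GC-richer probe was brighter in 53. On opposite strands 34 lincRNA probes shared 30 bases or more with another probe, in 33 pairs, of which 11 were detected on both arrays. In all 11 the differences of both members had the same sign, where 68.6% of lincRNA probes detected on both arrays were negative. Whether the signals are specific to a strand was not tested.

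Matches to RefSeq gave further loci. A stretch of 25 bases or more was shared with a microRNA hairpin by 4 lincRNA probes. The MIRLET7B probe, which shares its first 30 bases with the hairpin at chr22:46113686-46113768 (plus strand), read 7.90 ± 0.12 and 8.21 ± 0.19 (n = 3 spots), a difference of 0.31. The MIR6516 probe (chr17:77089417-77089497, plus strand) read 8.08 and 7.53 on 1 spot. The MIR4519 probe (chr16:30875266-30875323, minus strand) was detected at 2 h only, at 5.48, and the MIR221 probe (chrX:45746157-45746266, minus strand) on neither array.

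Around gene starts, 35 lincRNA probes shared 25 bases or more with a RefSeq window from 250 bases before to 50 bases after the start. Of these 17 were detected at 0 h and 23 at 2 h, and the median difference of the 17 detected on both arrays was -0.76 (range -1.22 to 0.40), beside -0.45 for all lincRNA probes. Of these 17 probes 12 had 50% GC or more, with a median of -0.70, beside -0.62 for all lincRNA probes of such GC, and the 5 under 50% GC had a median of -0.79, beside -0.24. The brightest match by mean level was A_19_P00320603, on the strand of LOC124900855 on chromosome 4, at 11.68 ± 0.09 and 10.76 ± 0.28 (n = 3 spots). Next was A_19_P00322569, opposite in strand to LNCTAM34A on chromosome 1, at 11.50 ± 0.0033 and 10.85 ± 0.22 (n = 3 spots). JPX, an activator of XIST, was matched by A_19_P00320132 and A_19_P00321521, which read 7.22 ± 0.24 and 7.96 ± 0.08 at 0 h and 6.46 ± 0.18 and 6.85 ± 0.04 at 2 h (n = 3 spots each). Both JPX probes were lower at 2 h after quantile normalization.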

How the data were processed

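RNA of LNCaP cells at 0 h and after 2 h in 10 nM DHT was measured with 1 array each. The authors deposited the output of Agilent Feature Extraction 10.7.1.1, whose processed signal is a background-corrected intensity not normalized between arrays, and a table of log2 values quantile normalized between arrays, whose direction and scale were settled against the scanner signals (r = 0.997 and 1.000 over 77148 probes, column medians 4.43 and 4.43).

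Quantile normalization used the signals of every non-control spot, and log2 values of spots free of outlier flags were averaged for each probe. The normalization was set against that of limma 3.58.1 (R 4.3.3), and values were computed with Python 3.11.15 and pandas 2.3.3. Probes were detected with a share of at least 0.5 of spots well above background. The lowest detected level was 5.65 at 0 h and 4.64 at 2 h. A change was a difference of 2-fold.

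The members and lists were chosen with earlier results of these data known. Named probes were the 5 largest rises and falls, the 5 largest bounds, the 5 brightest, those holding 15 bases of a PCR primer and those of 24 lncRNAs. Other probes and the base runs were chosen after their values were seen. Names came from the study's lists, and 8 of 32 symbols were current in RefSeq (GRCh38.p14). Sequences came from the array files.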

Additional observations from a re-analysis of the deposited data

How the results depend on the processing

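With 1 array per condition, precision is limited by the number of arrays, and probes near background carry only bounds, which are not strict. No paired analysis was possible because each condition had 1 array. Keeping flagged spots, or taking the median of spots, left the class median at -0.45. The median difference of lincRNA probes (-0.45) turned positive with no scaling (0.81) and with the spike-in shift (1.22), and was -0.84 with the 75th percentile of all spots and, in an alternative added after the data were seen, -0.22 in probes of 1 spot. Over probes detected on either array, also added then, it was -0.050. The 186 higher probes became 570 with the spike-in shift, 477 with no scaling, 74 after normexp correction, 44 with detection on both arrays, 121 at 3-fold and 100 as bounds. The 130 lower probes became 223 with the 75th percentile of all spots, 1 with the spike-in shift, 4 with no scaling, 44 after normexp correction and 23 at 3-fold. Counted as single spots they were 460 higher and 328 lower. The median in the 8 to 10 bin lay 0.67 above that in the 6 to 7 bin, which became 0.077 under every shift of whole arrays and no scaling, 0.99 in the log2 table of the authors, 0.94 in probes of 1 spot and -0.15 in bins of the 0 h signal. After normexp correction no probe lay in the lower bin, so this value was not run. Any spot detected raised the share at 0 h from 32.0% to 34.6%, and probes of 1 spot gave 56.9% in place of 52.0% at 2 h. The class gap (-0.36) became -0.11 in probes of 1 spot and -0.020 in probes of 3 spots, both added after the data were seen. Weighted to spot number it was -0.038, and among probes of 1 spot detected on either array it was 0.09. Over all spot numbers the class gap lay between -0.47 and -0.26 under the other settings, and the contrast by GC (-0.61) between -0.80 and -0.51. No scaling and the shifts of whole arrays give the same gap and the same contrasts by GC and level by construction, and count as 1 setting for these. For the 35 probes chosen by rule, 156 recomputed differences stayed within the spread of the spots and 124 did not, and no difference of 2-fold or more changed sign. The causes were not tested.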
